A study of Mus musculus with 10 samples.

Results

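The genes described here encode the factors that start and drive protein synthesis on cytosolic ribosomes, measured in regulatory T (Treg) cells from mouse spleen. They were taken from the deposited table by name: every gene whose symbol began with Eif1 to Eif6 or with Eef1 or Eef2, apart from Eif4ebp1 and pseudogenes. That gave 60 genes of the 14738 in the table. In all, 63 symbols matched the pattern, and Eif4ebp1 and 2 pseudogenes were left out. Names alone decided which genes were taken, although earlier results of these data were known when the family was chosen. Several of the factors carry regulators along with them by name, among them 4 kinases of eIF2 and the kinase of eEF2.

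Mixed bone-marrow chimeras, in which transplanted marrows of more than 1 genotype rebuild the blood, supplied the Treg cells. In both groups, CD45.1+ marrow was given in equal parts with marrow of the tested genotype. The group called WT had tested marrow of the genotype Foxp3Cre, and for the group called Flcn KO it was Foxp3CreFlcnfl/fl, so the WT cells carried the Cre as well. Foxp3Cre drives recombination in cells that express Foxp3, the transcription factor that defines Treg cells, and the loxP-flanked Flcn gene encodes folliculin. The sorted cells were CD4+ and positive for the Foxp3-YFP reporter, and they were CD45.2+ and CD45.1-. The design text gives 5 biological replicates per group, which makes 10 RNA-seq libraries in all, and the sources used here do not give the age or strain of the recipients. All values below are normalized counts, read counts divided by a size factor per library, unless another unit is named.

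Translation of most mRNAs starts when eIF4F binds the cap, a ternary complex of eIF2, GTP and initiator tRNA joins the small ribosomal subunit with eIF1, eIF1A, eIF3 and eIF5, and the assembled complex scans to a start codon. eIF5B then helps the large subunit to join, eEF1A delivers each aminoacyl-tRNA, and eEF2 moves the ribosome on by a codon. eIF2 kinases lower initiation by phosphorylating the alpha subunit of eIF2, and eEF2 kinase slows elongation by phosphorylating eEF2. The mTORC1 kinase, which folliculin acts on through the Rag GTPases at the lysosome, promotes the translation of mRNAs with a terminal oligopyrimidine (TOP) tract, and these include mRNAs of ribosomal proteins and of several elongation factors. These data measure mRNA levels and say nothing of translation or of phosphorylation.

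The reads of the table's genes summed to between 1914516 and 4153854 per library, of which 18618 to 42956 fell on the 60 factor genes. WT replicate 1 stood apart from the other libraries. Mitochondrial rRNA took 44.1% of its reads against 24.7% to 31.8% in the other 9, 807 genes had no read in it, and the results are therefore also given without it where that matters. The Treg markers Foxp3, Il2ra, Ctla4, Ikzf2, Cd4 and Cd3e summed to 10983 to 12457 in WT and 10092 to 11177 in the libraries labelled Flcn KO, a sum over members of both directions. Of the 6, Il2ra rose (limma log2 fold change 0.56, adjusted p = 0.0292), Ikzf2 fell (-0.55, adjusted p = 0.0336) and Ctla4 fell by edgeR (-0.52, adjusted p = 0.00267; limma adjusted p = 0.106). Flcn itself stood at 78.02, 45.6, 54.7, 46.5 and 46.2 in WT and at 158, 129, 130.4, 149 and 124 in the libraries labelled Flcn KO, higher in the second group (limma log2 fold change 1.36, adjusted p = 0.00476). Its level over the whole gene therefore does not check the labels, and directions below are those between the labelled groups. B-cell markers, 13 genes, summed to 263 to 450 in WT and 345 to 778 in Flcn KO, and myeloid and dendritic markers, 15 genes, to 124 to 364 and 218 to 516. None of the markers in either list was without reads in 5 or more libraries, and no gene of either list was called by limma or edgeR, with 3 and 4 genes at an unadjusted limma p below 0.05. The 5 plasma cell markers summed to 439 to 567 in WT and 344 to 480 in Flcn KO, and 1 of them, Prdm1, which Treg cells can also express, fell in both tests (limma log2 fold change -1.16, adjusted p = 0.037). Pecam1, the 1 gene of the stromal list that was measured, was at 436 to 576 in WT and 325 to 434 in Flcn KO without overlap. It fell by edgeR (-0.46, adjusted p = 0.0115, against a limma adjusted p of 0.151). A single gene does not show whether stromal cells were present in the sort. The part of these markers in the results below was not tested, apart from a model with the B-cell marker level as a term.

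Differences were tested over the whole table with limma on log2(normalized count + 1), and beside it with edgeR's quasi-likelihood test on the whole reads behind those values. A gene was called at a Benjamini-Hochberg adjusted p below 0.05. Between Flcn KO and WT, limma called 1 of the 60 factor genes higher, Eef2k, and none lower, where 0.944% of all 14723 tested genes were called higher and 0.768% lower. At an unadjusted p below 0.05, limma passed 14 of the 60 (23.3%), 11 higher and 3 lower, against 14% of all genes (7.16% and 6.88%). edgeR tested 59 of the 60, all but the low Eif3j2, and called 7 higher and 1 lower, that is 11.9% and 1.69%, against 3.08% and 2.68% of the 10404 genes it tested. The 7 were Eef1a1, Eef1b2, Eef1g, Eef2k, Eif2ak3, Eif3g and Eif5a, and the gene called lower was Eif2ak2. DESeq2 on the same reads called 7 higher and 1 lower, against 2.57% and 2.36% of all genes. limma-voom also called 7 and 1, with Eef2 in place of Eif3g, against 3% and 2.79%. limma with trend and robust variances called 6 and 1, without Eif3g, against 2.21% and 1.85%. The authors' deposited table listed 8 higher and 1 lower at the same threshold, Eef2 being the addition to the 7 of edgeR, against 2.48% and 2.29% of all genes.

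Most factor genes lay on the higher side by small amounts. The limma log2 fold change was positive for 47 of the 60 (78.3%) against 50.6% of all genes, with a median of 0.15 against 0.00. The count of positive values was 48 with TMM scaling and 44 when libraries were scaled to a common median. The WT and Flcn KO libraries did not overlap for 8 genes (13.3%), against 4.92% of all genes. Of these, Eef2k, Eif2ak3, Eif3b, Eif3g, Eif5 and Eif5a were higher in Flcn KO, where 2.47% of all genes were, and Eif2ak2 and Eif4g3 were lower, where 2.45% were. All 60 genes passed the limma filter, a normalized count of at least 1 in at least 5 libraries, so no member was lost to it.

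**Figure D1:**
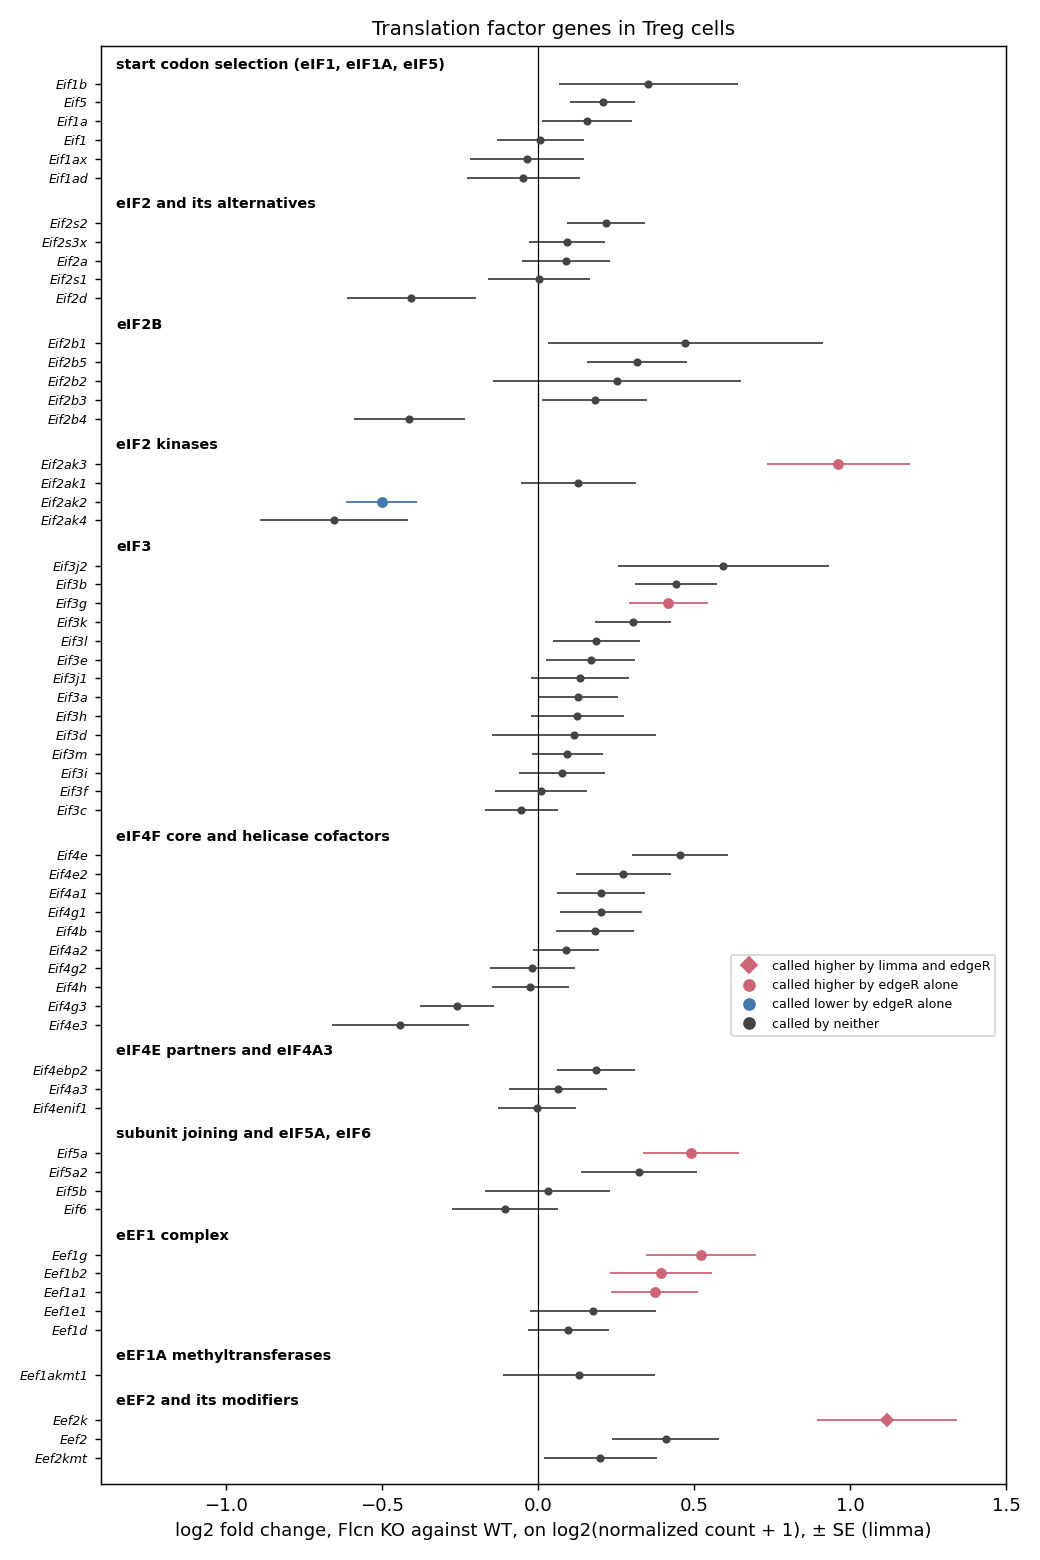
Log2 fold change (Flcn KO against WT, on log2(normalized count + 1)) of the 60 factor genes from limma, grouped by role, with bars for ± 1 SE. Eef2k (1.12) and Eif2ak3 (0.96) lie farthest to the right, Eif2ak4 (-0.65) and Eif2ak2 (-0.50) farthest to the left, and 47 of 60 points are above 0.

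Eef2k had the largest fold change among the factor genes. It encodes eEF2 kinase, a calmodulin-dependent kinase that mTORC1 signalling holds down and that slows elongation. Its counts were 19.8, 22.8, 12.7, 22.7 and 24.1 in the WT libraries and 66.02, 33.3, 47.5, 43.6 and 38.3 in the Flcn KO libraries. Every Flcn KO library lay above every WT library, and Flcn KO replicate 1 was the highest. The group means were 20.4 ± 4.58 and 45.7 ± 12.5 (SD, n = 5 each), a log2 fold change of 1.12 (SE 0.22, 95% interval 0.62 to 1.62, limma adjusted p = 0.037). The limma call held in 1 of the 10 fits that left out a library, the one without Flcn KO replicate 2, with adjusted p from 0.0495 to 0.0831. By edgeR the log2 fold change was 1.14 with an adjusted p of 0.00672, and Eef2k was called in all 10 edgeR fits that left out a library. The reads behind these values were few, 10 to 32 per WT library and 30 to 77 per Flcn KO library.

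Of the 60 genes, 48 had an entry in the RefSeq table of promoter windows used here, which cover 250 bases before and 50 after a gene's start. The other 12 were Eif3i, Eif4g2, Eif1a, Eif3h, Eef1akmt1, Eef1g, Eif3j2, Eif3e, Eif2b3, Eif4e3, Eif6 and Eef1d. The hexamer CACGTG, an E-box that factors of the MYC and MiT/TFE families can bind and that reads the same on both strands, was searched for in each window. It was present for 12 of the 48 (25%), against 11.6% of the 9356 table genes with a window and 7.15% of all 32851 windows. The 12 were Eef2, Eef2k, Eif1b, Eif3a, Eif3f, Eif3k, Eif4a1, Eif4e, Eif4g1, Eif4h, Eif5a and Eif5a2. A gene with several windows was counted if any of them held the hexamer. Eef1a1, Eef1b2, Eif2ak3 and Eif3g, which edgeR called higher, had a window without it. The stretches for 3 genes of the elongation step are shown because they stand at different places in the comparison: Eef2k was called by both tests, Eif5a by edgeR, and Eef2 by neither. They are from RefSeq on GRCm38.p6, another build than the mm9 of the submitters' processing notes, with the hexamer in capitals: Eef2k at chr7:120842770-120842839 on the plus strand, Eef2 at chr10:81176558-81176627 on the plus strand and Eif5a at chr11:69921421-69921490 on the minus strand.
Eef2k: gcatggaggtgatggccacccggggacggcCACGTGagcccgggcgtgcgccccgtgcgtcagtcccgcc
Eef2: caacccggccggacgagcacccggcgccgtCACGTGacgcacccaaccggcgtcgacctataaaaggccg
Eif5a: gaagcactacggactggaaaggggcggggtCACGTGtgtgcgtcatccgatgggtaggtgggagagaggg
The hexamer began at position -31 from the start of Eef2k, at -43 from that of Eef2 and at -74 from the start of Eif5a that was used. A match of letters is a description of the window, and binding was not measured in these libraries.

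The kinases of eIF2 differed in direction. Eif2ak3 encodes PERK, the kinase of the endoplasmic reticulum that answers misfolded protein there. Its counts were 27.2, 32.04, 21.6, 43.1 and 45.1 in WT and 80.6, 49.96, 71.8, 72.3 and 53.4 in Flcn KO. The groups did not overlap, and the gap between the highest WT and the lowest Flcn KO library was small. The means were 33.8 ± 10.1 and 65.6 ± 13.3 (SD, n = 5 each). Eif2ak3 rose by edgeR (log2 fold change 0.94, adjusted p = 0.0107, called in all 10 fits without a library), while limma gave 0.96 (SE 0.23) with an adjusted p of 0.0765.

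Eif2ak2 encodes PKR, which double-stranded RNA activates and interferon induces. It stood at 203, 211, 234, 206 and 187 in WT and at 153, 139.9, 135, 163 and 145 in Flcn KO. All Flcn KO libraries lay below all WT libraries, and the spread within each group was narrow. The means of 208 ± 17.1 and 147 ± 10.9 (SD, n = 5 each) correspond to a limma log2 fold change of -0.50 (SE 0.11, adjusted p = 0.0654). Eif2ak2 fell by edgeR (adjusted p = 0.00681), in all 10 fits that left out a library. It was the only factor gene that edgeR called lower with all libraries in the fit. Its RefSeq window holds the core pattern of interferon-stimulated response elements, GAAA, any 2 bases and GAAA again, searched on both strands. The pattern was present for 4 of the 48 factor genes (8.33%; Eif2ak2, Eif2s1, Eif2s3x and Eif3a), against 3.89% of table genes with a window and 3.44% of all windows. The stretch at chr17:78882543-78882603 on the minus strand of GRCm38.p6 is shown, with the match in capitals at position 19 after the start.
Eif2ak2: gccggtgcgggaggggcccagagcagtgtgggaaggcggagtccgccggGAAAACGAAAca

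Eif2ak4 encodes GCN2, the kinase that uncharged tRNA activates when amino acids run short. Its counts were 92.9, 89.7, 104, 82.7 and 57.7 in WT and 38.6, 58.8, 39.8, 82.3 and 55.9 in Flcn KO. The groups overlapped, since Flcn KO replicate 4 lay just below WT replicate 4 and above WT replicate 5, which was about as low as Flcn KO replicates 2 and 5. The limma log2 fold change was -0.65 (SE 0.24, adjusted p = 0.247), and the edgeR adjusted p of 0.0782 passed the threshold without WT replicate 5 and without Flcn KO replicate 4. Eif2ak1, which encodes the heme-regulated kinase HRI, averaged 108 ± 18.98 in WT and 119 ± 26.4 in Flcn KO (SD, n = 5 each). Its difference was smaller than the spread between libraries (log2 fold change 0.13, 95% interval -0.28 to 0.54, limma adjusted p = 0.818).

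**Figure D2:**
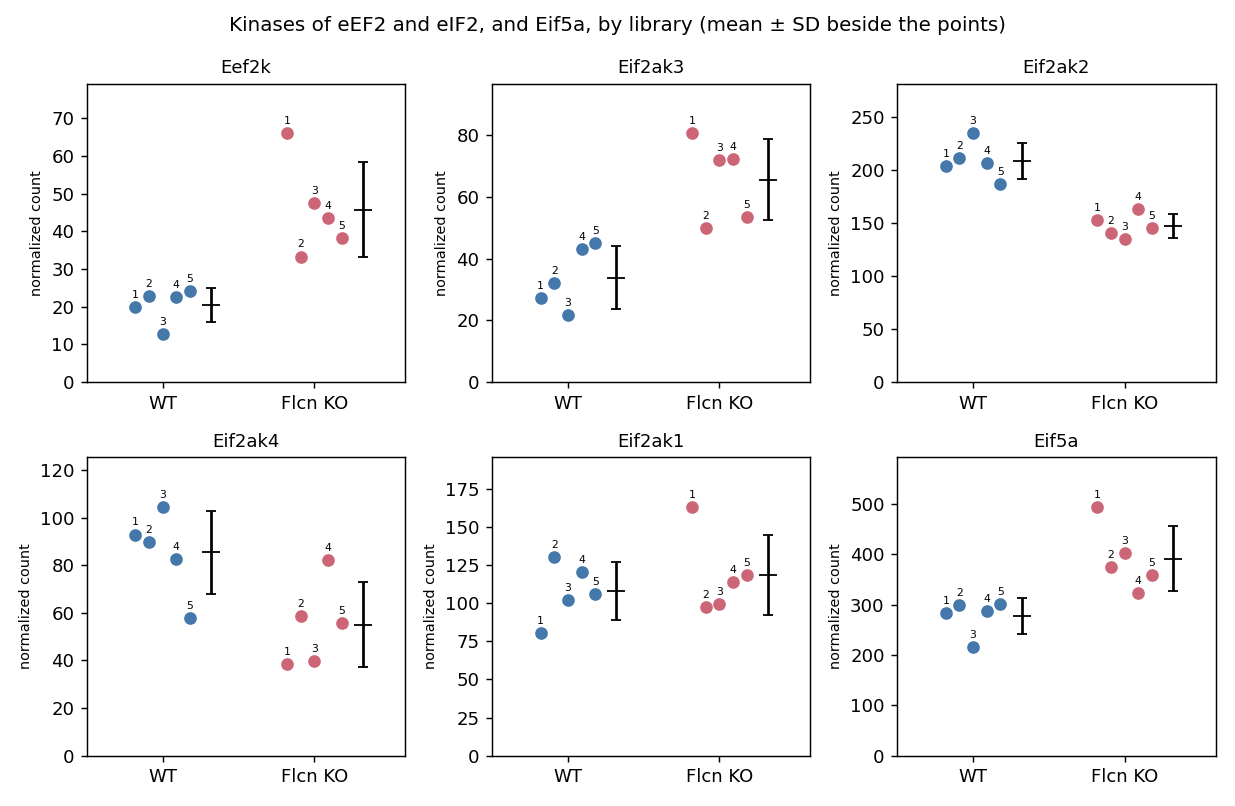
Normalized counts of Eef2k, the 4 eIF2 kinase genes and Eif5a in each library, with the replicate number at each point and the mean ± SD of 5 libraries beside it. The groups do not overlap for Eef2k, Eif2ak3, Eif2ak2 and Eif5a, and they overlap for Eif2ak4 and Eif2ak1.

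Per kilobase of the longest protein-coding transcript, the 4 eIF2 kinases in WT ranked Eif2ak2 (48.3 ± 3.98 normalized counts per kb), Eif2ak1 (24.9 ± 4.39), Eif2ak4 (16.1 ± 3.28) and Eif2ak3 (7.49 ± 2.24, SD, n = 5). The same order was obtained with the median transcript length, and each gap was wider than the SDs on both sides of it. PKR transcripts were thus the most abundant and PERK transcripts the least abundant of the 4 in WT Treg cells. A list of 16 other genes of the integrated stress response around eIF2, regulators as well as targets, had no gene called by limma, edgeR or DESeq2. It had 2 at an unadjusted limma p below 0.05, and a median log2 fold change of 0.09. edgeR tested 11 of the 16. Trib3, Sesn2, Asns, Atf3 and Cebpb were too low for its filter, with group means of 0.569 to 6.96, so they were hardly measured. Its central factor Atf4, a transcription factor whose translation rises when eIF2 is phosphorylated, stood at 232 ± 25.9 in WT and 238 ± 41.8 in Flcn KO (log2 fold change 0.02, SE 0.15, limma adjusted p = 0.97).

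Among the elongation factors, 3 subunits of eEF1 rose by edgeR and none by limma, by about the same proportion as ribosomal protein transcripts. Eef1a1 encodes eEF1A, which brings aminoacyl-tRNA to the ribosome. Its counts were 3189, 4013, 3813, 3992 and 4312 in WT and 6036, 5159, 4715, 4164 and 5038 in Flcn KO. A single Flcn KO library, replicate 4, lay within the WT range, and WT replicate 1 was the lowest of all. Eef1a1 rose by edgeR (log2 fold change 0.37, adjusted p = 0.04) in the full set and in 3 of the 10 fits that left out a library. limma gave 0.37 (SE 0.14, adjusted p = 0.256). Without WT replicate 1 the edgeR value was 0.31 with an adjusted p of 0.0342.

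Eef1b2 and Eef1g encode the beta and gamma subunits of eEF1B, which recharges eEF1A with GTP. Eef1b2 stood at 903, 1047, 1166, 1019 and 1069.6 in WT and at 1783, 1418, 1339, 990.0 and 1407 in Flcn KO, where replicate 4 lay inside the WT range. It rose by edgeR (log2 fold change 0.41, adjusted p = 0.0416), and the call was kept in 1 of the 10 fits without a library, that without Flcn KO replicate 4. Eef1g was at 562, 831, 791, 863 and 945 in WT and at 1436, 1126, 1069, 902 and 1187 in Flcn KO. The groups overlapped through Flcn KO replicate 4 and WT replicate 5. Eef1g rose by edgeR (0.51, adjusted p = 0.0157) in 9 of the 10 fits without a library, all but that without Flcn KO replicate 1. Eef1d and Eef1e1, also grouped here by their symbols, were called by neither test. Their limma log2 fold changes were 0.10 (SE 0.13) and 0.18 (SE 0.20). A symbol alone does not make Eef1e1 a subunit of the complex.

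Eef2, the translocase that Eef2k acts on, stood at 1496, 2364, 2344, 2064 and 2289 in WT and at 3532, 2809, 2563, 2304 and 2764 in Flcn KO. WT replicate 1 was far below the other WT libraries, and Flcn KO replicate 4 lay inside their range. The limma log2 fold change was 0.41 (SE 0.17, adjusted p = 0.32), the edgeR adjusted p was 0.0621, and the authors' deposited table gave 0.046. limma-voom called Eef2 higher (adjusted p = 0.0426). Without WT replicate 1 the edgeR log2 fold change was 0.30. Eef2kmt and Eef1akmt1, methyltransferases of eEF2 and eEF1A, were not called (0.20, SE 0.18, and 0.13, SE 0.24, by limma).

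Eif5a encodes eIF5A, the hypusine-bearing factor that helps ribosomes through stretches where peptide bonds form slowly. Its counts were 284, 299.7, 215, 287 and 301 in WT and 494, 375, 403, 323 and 359 in Flcn KO. The groups did not overlap, with WT replicate 3 the lowest and Flcn KO replicate 1 the highest. Eif5a rose by edgeR (log2 fold change 0.49, adjusted p = 0.0145) in 8 of the 10 fits without a library, all but those without WT replicate 3 or Flcn KO replicate 1. limma gave 0.49 (SE 0.15, adjusted p = 0.18). Of 10 genes for hypusine formation and polyamine metabolism, which supplies the group that eIF5A carries, limma called none, with 4 at an unadjusted p below 0.05. edgeR called 1 lower, Odc1, the ornithine decarboxylase that opens polyamine synthesis (256 ± 72.5 against 169 ± 34.9, adjusted p = 0.0382). The groups overlapped for Odc1, with WT replicate 1 at 149 and Flcn KO replicate 2 at 207. Other genes of the list lay higher in Flcn KO without a call: Srm (limma log2 fold change 0.48), Amd1 (0.55) and Oaz1 (0.44). In all, 6 of the 10 had a positive value. Dhps and Dohh, which build hypusine, were at 24.5 ± 7.84 against 23.2 ± 4.27 and 15.4 ± 6.84 against 16.6 ± 5.37, both within the spread.

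The 85 genes named as cytosolic ribosomal proteins were compared beside these factors, because 10 of the factor genes are also listed as TOP mRNAs in the literature. Of the 85, 84 had a limma log2 fold change above 0, and the median was 0.41. limma called none, with 50 at an unadjusted p below 0.05, while edgeR called 38 of 81 higher and none lower. Their summed level relative to the WT mean ran from 0.954 to 1.03 in WT and was 1.70, 1.36, 1.297, 0.996 and 1.32 in the Flcn KO libraries. Flcn KO replicate 1 was thus the highest and replicate 4 the lowest, the same order at both ends as for Eef1a1, Eef1b2, Eef1g and Eef2. Divided by the summed ribosomal protein reads of its library, Eef1a1 differed between the groups by -0.02 on the log2 scale, Eef2 by 0.01, Eef1g by 0.12, Eif5a by 0.09 and Eif3g by 0.02, all with overlapping groups. For the 10 listed TOP factors, limma called none and edgeR 3 higher, and the median limma log2 fold change was 0.18. Eif5a and Eif3g are not among the 10. In the same ratio the listed Eef1b2 differed by -0.004, Eef1d and Eif2s3x each by -0.30 and Eif3e by -0.23. The listed Eif3f differed by -0.39, Eif3h by -0.27 and Eif4b by -0.21. On the same scale Eef2k remained 0.74 higher and Eif2ak2 stood at -0.90, both with groups that did not overlap, and Eif2ak3 was 0.57 higher with groups that overlapped. In all, 10 of the 60 genes lay above and 50 below 0 on that scale, with a median of -0.25. Groups did not overlap for 1 gene above 0, Eef2k, and for 5 below: Eif2ak2, Eif3f, Eif4e3, Eif4g3 and Eif1. The ribosomal protein sum itself was higher in Flcn KO, so a gene without any change lies below 0 on that scale. These counts were not made over all genes and show nothing particular to the factors.

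**Figure D3:**
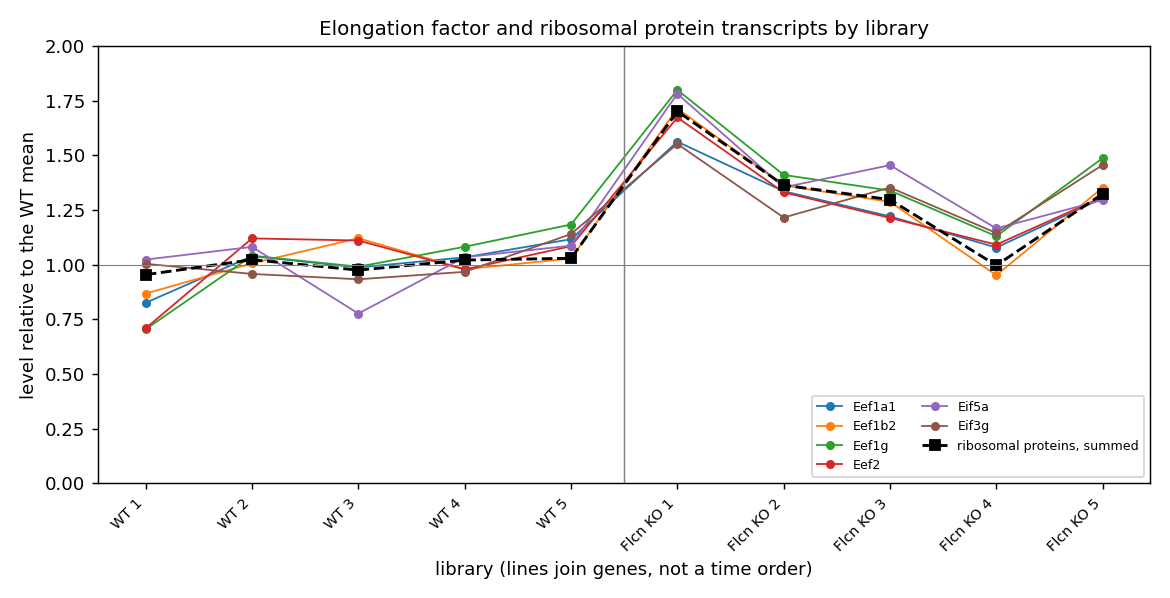
Level of 6 factor genes and of the summed ribosomal protein transcripts in each library, relative to the mean of the WT libraries (set to 1). The ribosomal protein sum lies between 0.954 and 1.03 in WT and between 0.996 and 1.70 in Flcn KO, and the factor genes take their highest value in Flcn KO replicate 1 and their lowest Flcn KO value in replicate 4.

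As a share of the reads other than mitochondrial rRNA, the 60 factor genes together made up 1.28% ± 0.0528 in WT and 1.47% ± 0.124 in Flcn KO (SD, n = 5 each). Eef1a1, Eef1b2, Eef1g and Eef2 held 0.420% ± 0.0659 and 0.553% ± 0.0769 of these reads, and the other 56 genes 0.860% ± 0.0171 and 0.913% ± 0.0485. The 4 genes therefore carried most of the difference in the family's share. Ribosomal proteins held 2.998% ± 0.216 and 3.99% ± 0.684. In a bulk sample, more cells of a kind and more RNA per cell cannot be told apart.

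The subunits of eIF3, the largest initiation complex and the platform on the small subunit, differed little as a group. Of 14 genes, limma called none (3 at an unadjusted p below 0.05), edgeR and DESeq2 called 1, and 13 had a log2 fold change above 0, the median being 0.13. Eif3g, an RNA-binding subunit that takes part in scanning, stood at 116, 111, 108, 112 and 132 in WT and at 180.0, 141, 157, 133 and 169 in Flcn KO. The groups were separated by a small margin, with WT replicate 5 close to Flcn KO replicate 4. Eif3g rose by edgeR (0.43, adjusted p = 0.0471), a call kept in 3 of the 10 fits without a library: those without WT replicate 1, WT replicate 5 or Flcn KO replicate 4. limma-voom (adjusted p = 0.053) and limma with trend and robust variances (adjusted p = 0.0778) did not call it. Eif3b, a scaffold subunit, was at 70.6, 85.4, 72.6, 82.7 and 70.3 in WT and 114, 121, 102, 86.2 and 99.2 in Flcn KO, also without overlap, but passed neither test with all libraries (limma 0.44, SE 0.13, adjusted p = 0.157; edgeR adjusted p = 0.0858). The most abundant subunits by either length, Eif3e (784 ± 78.2 against 886 ± 144) and Eif3a (1549 ± 172 against 1692 ± 179.5), were not called (limma 0.17, SE 0.14, and 0.13, SE 0.13). Eif3c, the single subunit with a negative value, had -0.05 (SE 0.12). Eif3j2 had the largest value of the group, 0.59 (SE 0.34), at 2 to 16 reads per library, and it is a close paralog of Eif3j1 (0.14, SE 0.16), so reads may be split between them.

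None of the 10 genes of the cap-binding machinery was called by limma, edgeR or DESeq2, and 1 had an unadjusted limma p below 0.05. eIF4F joins the cap-binding protein eIF4E, the scaffold eIF4G and the helicase eIF4A, and eIF4B and eIF4H assist the helicase. Log2 fold changes were positive for 6 of the 10, and the median was 0.14. Eif4e, the main cap-binding protein, stood at 91.6, 98.96, 112, 87.2 and 145 in WT and at 146, 145, 143, 132 and 158 in Flcn KO. The first 4 WT libraries lay below every Flcn KO library, and WT replicate 5 lay within the Flcn KO range. The limma log2 fold change of Eif4e was 0.45 (SE 0.15, adjusted p = 0.215) and its edgeR adjusted p 0.0794, which passed the threshold without WT replicate 5. Eif4e3, a paralog of the same family, had the opposite sign, at 113, 88.99, 103, 75.9 and 102 in WT and 75.4, 97.7, 85.1, 43.6 and 62.2 in Flcn KO (-0.44, SE 0.22, limma adjusted p = 0.416). Its groups overlapped. Eif4e2, the cap-binding homologue 4EHP that represses translation, had 0.27 (SE 0.15, limma adjusted p = 0.482).

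Eif4g3, which encodes the scaffold paralog eIF4GII, stood at 939, 779.6, 791, 787 and 755 in WT and at 743, 729, 619, 664 and 628 in Flcn KO. All Flcn KO libraries lay below all WT libraries, narrowly so, yet neither test called it (limma -0.26, SE 0.12, adjusted p = 0.362; edgeR adjusted p = 0.117). Eif4g1, the main scaffold, had 0.20 (SE 0.13), and Eif4g2, which encodes the scaffold DAP5 that lacks the eIF4E site, had -0.02 (SE 0.14). The helicase genes Eif4a1 (420.2 ± 58.6 against 483 ± 64.4) and Eif4a2 (1578 ± 94.4 against 1680.0 ± 101), and the cofactors Eif4b (0.18, SE 0.12) and Eif4h (-0.02, SE 0.12), passed neither test. Eif4ebp2, a repressor that competes with eIF4G for eIF4E, and Eif4enif1, which carries eIF4E into the nucleus, had 0.19 (SE 0.13) and -0.00 (SE 0.13). Eif4a3, a helicase of the exon junction complex, had 0.06 (SE 0.16).

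Ratios between related genes do not depend on how a library was scaled. They were compared for 11 pairs by an exact permutation test, two-sided, that runs through all ways of dividing the 10 libraries into groups of 5, with Benjamini-Hochberg adjustment over the pairs. The ratio of Eif4e to Eif4e3 was 0.813, 1.11, 1.09, 1.15 and 1.42 in WT and 1.93, 1.49, 1.68, 3.02 and 2.54 in Flcn KO. The lowest Flcn KO ratio lay just above the highest WT ratio. The means were 1.12 ± 0.217 and 2.13 ± 0.636 (SD, n = 5 each; exact permutation p = 0.00794, adjusted 0.0437). The ratio of Eif4g1 to Eif4g3 was 0.365, 0.354, 0.393, 0.368 and 0.46 in WT and 0.564, 0.546, 0.537, 0.516 and 0.499 in Flcn KO, again without overlap (means 0.388 ± 0.0427 and 0.533 ± 0.0253; exact permutation p = 0.00794, adjusted 0.0437). The value of 0.00794 is the smallest that this design allows. With 1 library left out, the adjusted permutation p of these 2 pairs lay between 0.0437 and 0.0873, so that Eif4e to Eif4e3 lost its call in all 10 repeats and Eif4g1 to Eif4g3 in 9, all but that without WT replicate 5. A pair that is alone at the smallest possible p does not pass after adjustment over the 11 pairs. The lost calls therefore cannot tell how far the ratios depended on 1 library. The direction was the same in each repeat.

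**Figure D4:**
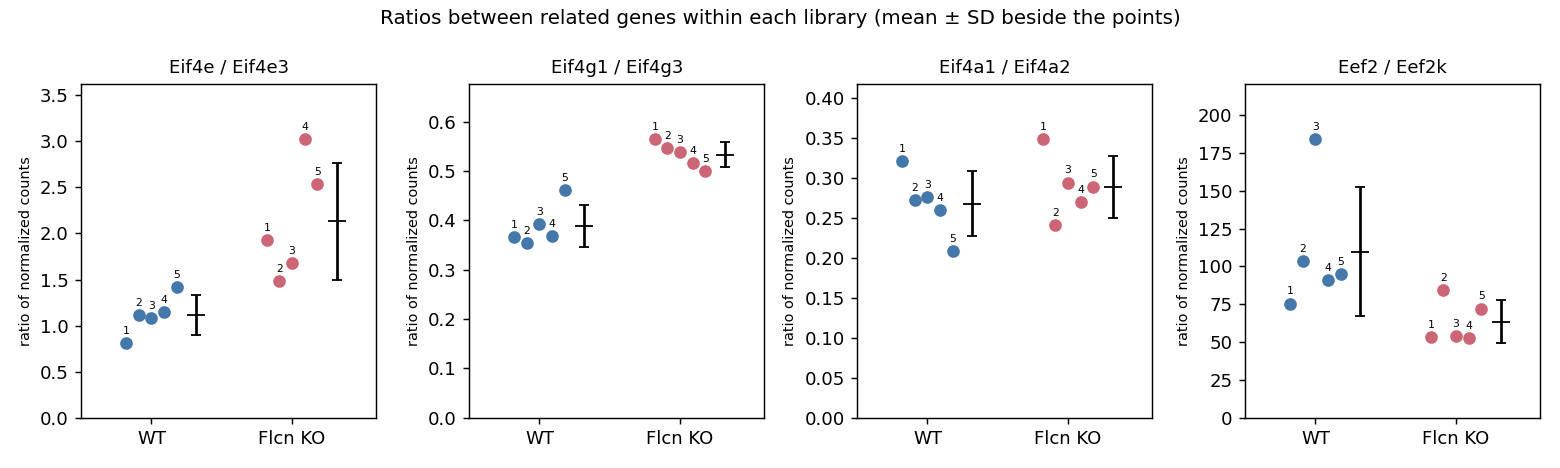
Ratio of normalized counts within each library for 4 pairs of related genes, with the replicate number at each point and the mean ± SD of 5 libraries beside it. Eif4e to Eif4e3 and Eif4g1 to Eif4g3 have groups that do not overlap, and Eif4a1 to Eif4a2 and Eef2 to Eef2k have groups that overlap.

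The other 9 pairs did not pass with all libraries. Eef2 to Eef2k stood at 109.9 ± 42.7 in WT against 63.4 ± 14.3 in Flcn KO (exact permutation adjusted p = 0.0582), and Eif2ak1 to Eif2ak4 at 1.32 ± 0.395 against 2.38 ± 1.12 (adjusted 0.153). Eif4a1 to Eif4a2 was 0.267 ± 0.0405 against 0.288 ± 0.0392 (adjusted 0.48). The helicase paralog Eif4a2 was the more abundant of these in WT by either transcript length, with Eif4a1 at 0.408 or 0.259 of its level per kb. Eif5a exceeded its paralog Eif5a2 by a ratio of 32.3 ± 4.94 (SD, n = 5) per kb in WT and of 38.4 ± 18.1 in Flcn KO, where replicate 1 was far above the others. Eif4b to Eif4h passed in a single repeat, without WT replicate 5, and is not counted as a difference.

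The 10 genes of eIF2, its alternatives and its exchange factor gave no call in limma, edgeR or DESeq2, and 1, Eif2b4, had an unadjusted limma p below 0.05. eIF2 is built from Eif2s1, the subunit that the kinases phosphorylate, Eif2s2 and Eif2s3x. Eif2s1 averaged 238 ± 56.7 in WT and 234 ± 15.5 in Flcn KO (0.00, SE 0.16), Eif2s2 262 ± 28.6 and 305 ± 29.4 (0.22, SE 0.13), and Eif2s3x 161 ± 18.1 and 172 ± 12.7 (0.09, SE 0.12). Eif2d, which can deliver initiator tRNA without eIF2 and acts in ribosome recycling, had the lowest value among eIF2 and its alternatives at -0.40 (SE 0.21, limma adjusted p = 0.426). Its WT replicate 1 stood at 64.4 and the other WT libraries between 106 and 122, and without WT replicate 1 edgeR called Eif2d lower. Eif2a, another factor that can carry initiator tRNA, had 0.09 (SE 0.14). The 5 genes of eIF2B, which reloads eIF2 with GTP, ranged from -0.41 (Eif2b4, SE 0.18) to 0.47 (Eif2b1, SE 0.44). Eif2b1 and Eif2b2 had 4 and 9 reads in WT replicate 1 against 20 to 71 in the others, and without that library the edgeR log2 fold change of Eif2b1 was 0.03 and that of Eif2b2 -0.15.

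Among the factors that select the start codon, Eif5, which activates GTP hydrolysis on eIF2, stood at 1113, 927, 1064, 1029 and 1042 in WT and at 1217, 1240.1, 1174, 1212 and 1128 in Flcn KO. The groups did not overlap, but the margin was narrow and neither test called the gene (0.21, SE 0.11, limma adjusted p = 0.427; edgeR adjusted p = 0.204). Eif1, the gatekeeper of start codon choice, had 0.01 (SE 0.14), Eif1a 0.16 (SE 0.14) and Eif1ax -0.04 (SE 0.18). Eif1b (0.35, SE 0.29) and Eif1ad (-0.05, SE 0.18) were also not called. Eif5b, which joins the subunits, was at 1022, 554, 508, 589 and 516 in WT and 747, 592, 624, 567 and 623 in Flcn KO. WT replicate 1 stood far above every other library, and the limma log2 fold change was 0.03 (SE 0.20) with it and 0.21 by edgeR without it. Eif6, which keeps the large subunit free, had -0.11 (SE 0.17), and Eif5a2 0.32 (SE 0.19).

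Levels across the family spanned a wide range in WT. Per kilobase, Eef1a1 ranked first by either transcript length, at 2154 ± 233 normalized counts per kb of its longest transcript, and Eef2 followed at 684 ± 118. Eif4a2 (583 ± 34.9), Eef1b2 (537 ± 49.0) and Eif3e (520 ± 51.9) came next, and they did not differ from each other or from Eef2 by more than the sum of their SDs. Eif3j2 ranked last by either length at 2.26 ± 1.09. Eef1a1 thus headed the order, and the 5 eIF2B genes, at 10.96 to 23.5 normalized counts per kb, lay in its lower part by either length. Ranks in between moved with the length used, as for Eef2, at rank 2 by the longest and 5 by the median length, and for Eif4g2, Eif4e and Eef2k, and are not compared.

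Lists of neighbouring genes put these values in context. Of 13 genes on the branch from mTORC1 to translation, limma called none (1 at an unadjusted p below 0.05) and edgeR 1, Larp1, which binds and regulates TOP mRNAs. Larp1 rose by edgeR from 563 ± 31.4 to 805 ± 67.95 (log2 fold change 0.51, adjusted p = 0.000893; limma adjusted p = 0.051). Of 17 ribosome biogenesis genes, both tests called 1 higher, Gnl3, which encodes the nucleolar GTPase nucleostemin (87.9 ± 6.36 against 151 ± 21.3, limma log2 fold change 0.77, adjusted p = 0.0204). Of 14 other TOP transcripts, limma called none (6 at an unadjusted p below 0.05), and edgeR called Rack1, a ribosome-bound scaffold (798 ± 57.1 against 1109 ± 169.6), and the host gene Snhg1 (199 ± 18.3 against 263 ± 35.4) higher and Vim, which encodes vimentin, lower (889 ± 106 against 676 ± 34.8). Neither limma nor edgeR called any of 10 mitochondrial translation factors (median -0.07, 0 at an unadjusted limma p below 0.05, 0 by DESeq2) or of 13 genes of poly(A) binding, termination and recycling (median 0.09, 2 at an unadjusted limma p below 0.05, 1 by DESeq2). Pabpc1, the main poly(A)-binding protein, was at 3378 ± 254 against 4124 ± 411 (edgeR adjusted p = 0.0903).

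Leaving out WT replicate 1, edgeR called 6 factor genes higher (Eef1a1, Eef1g, Eef2k, Eif2ak3, Eif3g and Eif5a) and 2 lower (Eif2ak2 and Eif2d). Without Flcn KO replicate 1, the library highest in ribosomal protein transcripts, it called Eef2k and Eif2ak3 higher and Eif2ak2 lower. Without Flcn KO replicate 4 it called 9 higher, adding Eef2 and Eif3b, and 2 lower, adding Eif2ak4. Over the whole table edgeR called 668 genes without WT replicate 1, 431 without Flcn KO replicate 1 and 682 without Flcn KO replicate 4. With all libraries it called 599. The factor counts did not always move with those of the whole table. Without WT replicate 5 edgeR called 525 genes, with 7 factor genes higher and 2 lower. Without WT replicate 3 it called 404, with 3 and 1. Eef2k, Eif2ak3 and Eif2ak2 were the 3 factor genes called in all 10 edgeR fits that left out a library. With the mean level of the B-cell markers added to the model, neither limma nor edgeR called any factor gene. edgeR then gave 0.95 for Eef2k (adjusted p = 0.16), 0.67 for Eif2ak3 (adjusted p = 0.297), -0.48 for Eif2ak2 (adjusted p = 0.115) and 0.46 for Eif5a (adjusted p = 0.167), and it called 247 genes of the whole table against 599 without the marker term. The sample codes number the WT libraries ahead of the Flcn KO libraries, and any effect of that order cannot be told apart from genotype.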

How the data were processed

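The deposited table gave, for each library, a signal per gene that is read here as a normalized count. It also held the log2 fold change that the authors computed, with its standard error, its test statistic (a score) and p-values. Trimmomatic 0.36, STAR 2.5.3a, RSEM 1.3.1, DESeq2 1.24.0 and the genome build mm9 are named in the submitters' processing notes without a role. Strand handling, annotation and filters were not given in the sources used here. Per the labels, RNA came from the Qiagen RNeasy micro kit and cDNA from a NuGEN method for low RNA input.

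In every column 100% of the deposited values were whole multiples of the signal of 1 read, within 0.01 reads, so whole read counts were recovered. Multiples came out whole in the library whose step is 0.991 too. Reads of gene copies with near-identical sequence, such as those of Eef1a1, Eif5a and Eif3j1, may have been divided by the authors' counting. Chi-square values between libraries of a group, 2.17 to 30.5 per degree of freedom and 24.2 or more for pairs with WT replicate 1, exceeded counting noise, so no library was a repeat of another.

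The test of reference was limma 3.58.1 on log2(normalized count + 1), genotype alone, eBayes without trend or robust, for the 14723 genes that reached a normalized count of 1 in at least 5 libraries. Fold changes are on this scale, on which the added 1 shrinks the ratio of low values. edgeR 4.0.16 (quasi-likelihood, filterByExpr, TMM), DESeq2 1.42.0 and limma-voom were run on the recovered reads in R 4.3.3. Pairs were compared by an exact permutation test. P-values measure the spread between these 10 libraries. Transcript lengths were those of GENCODE vM21 and promoter windows those of RefSeq on GRCm38.p6, used by gene name alone.

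The members and the lists, and the rule for named genes (members called by any test, the extremes and the most abundant of each role group, all paralog pairs and kinases), were chosen with earlier results of these data known. Alternatives were other pseudocounts, filters, scalings and tools, a replicate block, a B-cell marker term and leaving out each library. The edgeR repeats and those of the pairs were added after seeing the data. Pairs with Eef1a2 and Eif2s3y were not analysed here.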

Additional observations from a re-analysis of the deposited data

Results flagged for a closer look

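In each group of 5 libraries, the highest or lowest value of every factor gene was compared with the range of its group by Dixon's criterion. Of 120 groups looked at, 11 had a library that stood apart, where chance gives about 6. WT replicate 1, the library with the most mitochondrial rRNA, accounted for 7 of them. It was high for Eif4g2 (2663, the other WT libraries at 1867 to 1887), Eif5b (1022, the others at 508 to 589), Eif4g3 (938.8, the others at 755 to 791), Eif3f (436, the others at 313 to 344), Eif2a (223, the others at 162 to 172) and Eif3l (155, the others at 104 to 118). It was low for Eif2d (64.4, the others at 106 to 122). The values of WT replicate 1 therefore raise the WT means of 6 genes that no test called and lower that of Eif2d.

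In the other libraries, WT replicate 2 was high for Eif2b3 (54.1, the others at 39.6 to 43.0), and WT replicate 3 was low for Eif5a (215, the others at 284 to 301). Flcn KO replicate 1 was high for Eif4a1 (594, the others at 433 to 477), and Flcn KO replicate 4 was low for Eif3m (223, the others at 258 to 269.97).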

How the results depend on the processing

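limma called 139 genes of the table higher and 113 lower, with 1 factor gene higher and 0 lower. The counts in the same order (all genes, factor genes higher, factor genes lower) were 598, 6 and 1 with trend and robust variances, 599, 7 and 1 with edgeR, 727, 7 and 1 with DESeq2, 602, 7 and 1 with limma-voom, and 703, 8 and 1 in the authors' deposited table. They were 327, 2 and 0 with a pseudocount of 5, 291, 2 and 1 with a filter at 10 normalized counts, and 71, 0 and 0 with the B-cell marker level as a covariate. Under edgeR with that covariate the factor counts were 0 and 0. Median scaling gave 1 factor gene in each direction. A pseudocount of 0.5, no filter and TMM scaling left the factor counts at 1 and 0.

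Without 1 library, limma called 125 to 222 genes, with 0 to 1 factor genes higher and 0 lower, and edgeR 404 to 682, with 2 to 9 higher and 1 to 2 lower. With the replicate number as a replicate block, limma called 59 genes, 0 factor genes higher and 0 lower, and edgeR called 539, 4 and 1. Same-numbered libraries had deviations correlated at 0.00923 to 0.0325 and did not all correlate best with their own number, so the numbers were not taken to pair the samples.

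Without 1 library, the log2 ratio difference ranged from 0.77 to 1.02 for Eif4e to Eif4e3, from 0.43 to 0.52 for Eif4g1 to Eif4g3 and from 0.13 to 0.31 for Eif4b to Eif4h. Of 2085 repeats of a factor gene under an alternative, 107 changed sign, in 17 genes, none of them called with either sign. The cause of these shifts was not tested. Counting error limits the precision of values that rest on few reads, such as those of Eif3j2 at 2 to 16 reads per library, and intervals cover counting and replicate error of these libraries alone.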
